A study of Danio rerio with 6 samples.

Results

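The translation initiation and elongation factor genes are the 74 genes, of 29361 gene symbols in the table, whose symbol starts with eif1 to eif6 or with eef1 or eef2 and which had at least 10 reads summed over the 6 libraries. Of these, 61 were eif genes and 13 were eef genes. All 74 symbols were found in a RefSeq gene table. The rule matched 77 symbols, and the 3 others, eef1a2, eif2ak4 and eif4e1b, had 2, 0 and 3 reads in all. RNA came from sorted cells of zebrafish embryos 48 hours after fertilisation, from mafba uq4bh mutants (3 libraries) and wild-type fish (3 libraries), and was amplified before sequencing. Fish of both genotypes carried a transgene in which the promoter of kdrl, a Vegf receptor gene of endothelial cells, drives eGFP. The mutation lies in mafba, which encodes a large Maf transcription factor, and the labels give neither the number of copies mutated nor the number of embryos pooled. The labels call the cells endothelial, while the protocol speaks of brains and of a pdgfr beta reporter, so the sorted population is not settled by the labels.

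Eukaryotic translation starts when the small ribosomal subunit, loaded with initiator tRNA by eIF2, is recruited to the capped end of an mRNA by eIF4F and scans to the start codon. The scaffold eIF3 and the small factors eIF1 and eIF1A take part in this step, and eIF5 and eIF5B lead to joining of the large subunit. Elongation is carried by eEF1A, which delivers aminoacyl-tRNA, by its exchange factor eEF1B, and by eEF2, which moves the ribosome along. The factors are used by every cell type, and many of their genes exist as duplicated copies in zebrafish.

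Reads on genes ranged from 44888870 to 52923490 in mutant and from 43859736 to 49145191 in wild-type libraries. Levels are given as CPM, reads per 1e+06 reads of the library total after TMM scaling (edgeR's scaling between libraries), and are not corrected for transcript length, because no transcript lengths were used here. Values are therefore compared between libraries for the same gene or group, and not between genes. Of 16 endothelial markers 15 were in the files, each with at least 10 reads, and their summed level was 731, 741 and 546 CPM in mutant 1, 2 and 3 and 838, 563 and 599 CPM in wild-type 1, 2 and 3. Markers of other cell types were also detected. Epidermal markers (10 genes) summed to 8593 to 12849 CPM in mutant and 7789 to 10813 CPM in wild-type libraries, and neutrophil markers (6 genes) to 6256 to 15728 CPM in mutant and 6247 to 10337 CPM in wild-type libraries. Skeletal muscle markers (13 genes) summed to 2433 to 4970 CPM in mutant and 2590 to 7355 CPM in wild-type libraries, and erythrocyte markers (8 genes) to 1259 to 3182 CPM in mutant and 1855 to 2538 CPM in wild-type libraries. Neural markers summed to 290 to 368 CPM in mutant and 319 to 432 CPM in wild-type libraries, and mural cell markers to 29.8 to 35.8 CPM in mutant and 24.8 to 35.6 CPM in wild-type libraries. Macrophage markers summed to 6.91 to 9.89 CPM in mutant and 8.59 to 22.7 CPM in wild-type libraries, and germ line markers to at most 0.546 CPM in mutant and 1.1 CPM in wild-type libraries. These sums cover different genes and are not compared with each other. The gene mafba itself stood at 31.0, 39.6 and 38.6 CPM in mutant and 32.9, 45.8 and 33.3 CPM in wild-type libraries. The labels do not say where in the gene uq4bh lies, so this level does not check the genotypes. In such bulk samples fewer cells of a type and less RNA per cell cannot be told apart.

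The factor genes took 4.65%, 4.48% and 4.90% of the reads on genes in mutant 1, 2 and 3 and 4.88%, 4.28% and 4.82% in wild-type 1, 2 and 3. Of all these factor reads, 34.6% fell on eEF1A genes, 19.5% on eEF2, 14.3% on eIF3, 10.1% on eEF1B and 5.02% on eIF5A. In the order of all genes by reads, eef1a1l1 was number 2 and eef2b number 6. Of the 74 genes, 72 had reads in each of the 6 libraries and 36 stood above 100 CPM in each, while 9 had a mean under 10 CPM.

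**Figure D1:**
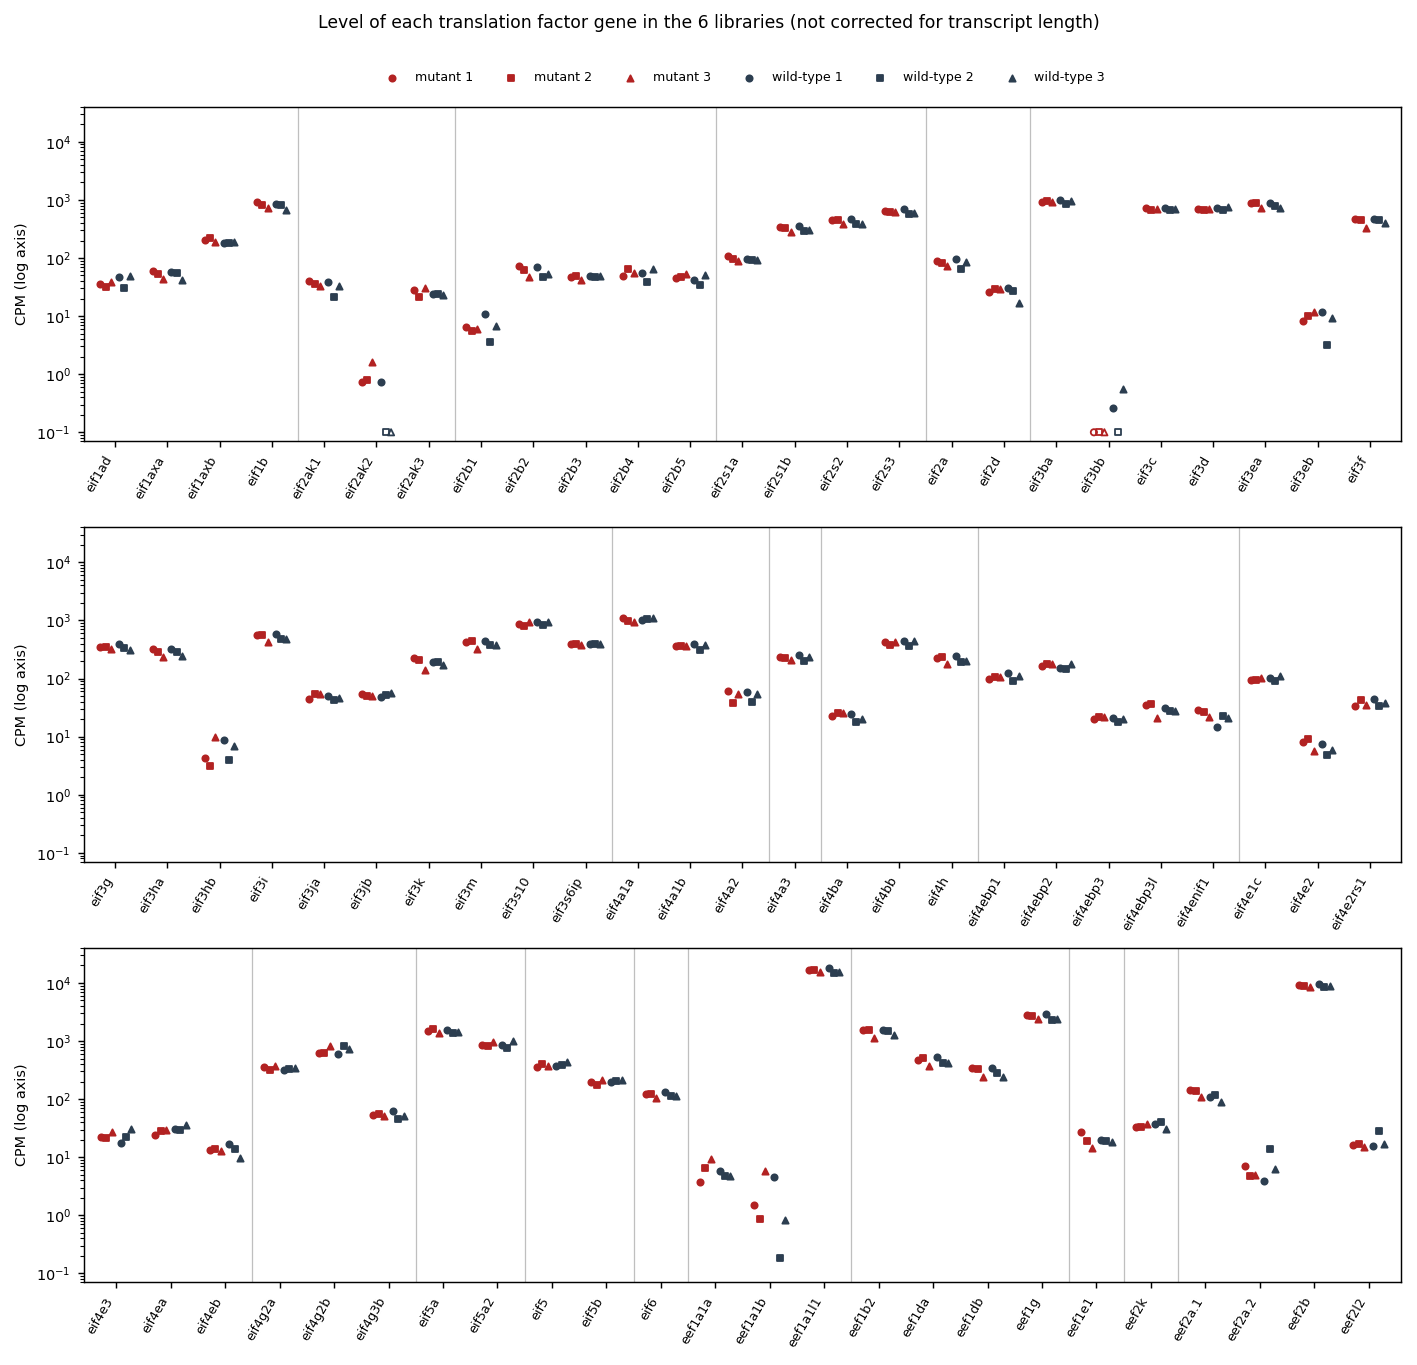
CPM of each of the 74 factor genes (vertical log axis, not corrected for transcript length) in the 3 mutant (red) and 3 wild-type (dark) libraries; each point is 1 library, grey lines separate the factor groups, and open symbols at the bottom mark libraries with 0 reads. The points of most genes lie close together, while eif2ak2, eif3bb and eef1a1b spread widely at low levels.

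Among the initiation factors that load the small subunit, eif1b, which encodes eIF1, the guard of start codon choice, stood at 907, 819 and 729 CPM in mutant and 841, 827 and 674 CPM in wild-type libraries. Both eIF1A genes were detected, eif1axb at 204, 218 and 188.1 CPM in mutant and 184, 178 and 187.8 CPM in wild-type libraries. The 4 genes of eIF2 summed to 1535, 1502 and 1359 CPM in mutant and 1617, 1350 and 1385 CPM in wild-type libraries. In eIF2 the highest library had 1.20 times the level of the lowest, with wild-type 1 highest and wild-type 2 lowest. Mutant 3 was close to wild-type 2 and was lowest in 3 of the 4 genes. With RLE and upper-quartile factors, which are other scalings, the eIF2 sum was lowest in mutant 3, at 1352 and 1363 CPM. Wild-type 2 then stood at 1365 and 1370 CPM. With library totals as the scaling, mutant 3 instead stood at 1512 CPM and was lowest in 0 of the 4 genes. The lowest sum was then that of wild-type 2, at 1321 CPM, so the place of mutant 3 depended on the scaling.

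The exchange factor eIF2B recharges eIF2 with GTP, and the eIF2 kinases block that step under stress. The 5 eIF2B genes summed to 220, 230 and 202 CPM in mutant and 227, 171 and 224 CPM in wild-type libraries, so wild-type 2 was the low library. Of the kinases, eif2ak1, which encodes the haem-regulated kinase, stood at 39.6, 36.3 and 33.1 CPM in mutant and 38.1, 21.7 and 33.6 CPM in wild-type libraries. The gene of the endoplasmic reticulum stress kinase PERK, eif2ak3, stood at 28.0, 20.9 and 30.3 CPM in mutant and 23.7, 24.0 and 22.6 CPM in wild-type libraries. The gene of PKR, the kinase activated by double-stranded RNA, was low and not detected in every library. For eif2ak2 there were 34, 34 and 97 reads in mutant and 31, 0 and 0 reads in wild-type libraries. The genotypes overlap through wild-type 1. The amino acid stress kinase gene eif2ak4 had 0 reads in each library, which allows up to 0.0510 to 0.0712 CPM per library (3 reads, counting error only). The annotation used in counting was not given, so these 0 reads do not show that its RNA was absent.

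The eIF3 complex had 17 members, 13 of which carry the name of a different subunit and 4 of which are second copies. One of these, eif3bb, is listed as a pseudogene in the RefSeq table. Together they summed to 6965, 6818 and 6213 CPM in mutant and 7191, 6382 and 6579 CPM in wild-type libraries. The subunit genes ranged widely in steadiness, from eif3eb with 1 of the 3 largest spreads of the set, 0.731 log2 units within genotype, to eif3s6ip. The steadiest member of the whole set was eif3s6ip, an older name of the eIF3l subunit, at 399, 394 and 375 CPM in mutant and 390, 396 and 392 CPM in wild-type libraries, with a spread within genotype of 0.0344 log2 units. The largest subunit eIF3a, listed as eif3s10, stood at 877, 805 and 929 CPM in mutant and 928, 822 and 950 CPM in wild-type libraries. The second copies eif3eb, eif3hb and eif3bb were low, and eif3bb had 0 reads in each mutant library and 11, 0 and 29 reads in wild-type libraries. All reads of eif3bb were wild-type reads, so it entered the set through that genotype alone, and its direction is no evidence of a difference. By reads summed within a genotype, 3 reads were set for the mutant total (counting error only). That assumed floor gave a bound of at least 14.3-fold lower in mutant libraries. That value leaves out the counting error of the wild-type reads and the spread between libraries. Since wild-type 2 also had 0 reads, eif3bb overlapped between genotypes, and it fell below the low-count filter.

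The cap-binding complex eIF4F joins the cap-binding protein eIF4E, the scaffold eIF4G and the helicase eIF4A. The helicase genes eif4a1a, eif4a1b and eif4a2 summed to 1522, 1374 and 1357 CPM in mutant and 1468, 1432 and 1529 CPM in wild-type libraries. Of the cap-binding genes, eif4e1c stood at 94.8, 93.3 and 102 CPM in mutant and 102, 89.4 and 110 CPM in wild-type libraries. The scaffold genes in the set were eif4g2a, eif4g2b and eif4g3b. The eif4g2 genes encode a scaffold relative, known in mammals as DAP5, that lacks the eIF4E contact. Summed eIF4G stood at 1015, 1005 and 1230 CPM in mutant and 970, 1188 and 1137 CPM in wild-type libraries. Here mutant 3, wild-type 2 and wild-type 3 were the high libraries, a different order from eIF2 and eIF3. Most reads of this sum came from the eif4g2 genes. The other scaffold gene, eif4g3b, stood at 54.1, 55.9 and 51.0 CPM in mutant and 62.9, 45.1 and 50.8 CPM in wild-type libraries. It was highest in wild-type 1 and lowest in wild-type 2. A scaffold entry outside the rule, EIF4G1_(1_of_3), described next, was highest in wild-type 3 and lowest in mutant 2.

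Of 6 symbols that match only in upper case and so lie outside the rule, 4 had at least 10 reads. The scaffold entry EIF4G1_(1_of_3) stood at 458, 400 and 490 CPM in mutant and 499, 455 and 515 CPM in wild-type libraries, and its log2 difference was -0.12 ± 0.15 (SE). The entry EIF1B had 172, 158 and 127 CPM in mutant and 162, 126 and 129 CPM in wild-type libraries. The entry EIF2B5_(2_of_2) had 15.4, 11.8 and 9.71 CPM in mutant and 9.99, 5.82 and 10.2 CPM in wild-type libraries, a log2 difference of 0.51 ± 0.32 (SE) with overlapping genotypes. These symbols were examined after their values were seen. With them counted, the number of factor genes called was still 0 and the median log2 difference 0.00360.

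The 4E-BP proteins bind eIF4E and keep it from eIF4G. The gene eif4ebp2 stood at 166, 177 and 176 CPM in mutant and 150, 145 and 176 CPM in wild-type libraries, and eif4ebp1 at 99.1, 108 and 108 CPM in mutant and 125, 91.0 and 111 CPM in wild-type libraries. The eIF4E transporter gene eif4enif1 stood at 28.6, 26.6 and 21.8 CPM in mutant and 14.7, 22.3 and 21.2 CPM in wild-type libraries. All but mutant 3 of the mutant libraries lay above every wild-type library.

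The accessory helicase factor genes eif4ba, eif4bb and eif4h were detected in each library, with eif4bb at 420, 374 and 418 CPM in mutant and 444, 370 and 451 CPM in wild-type libraries. The gene eif4a3, which encodes the helicase of the exon junction complex, stood at 237, 228 and 205 CPM in mutant and 255, 198 and 235 CPM in wild-type libraries. The alternative initiator tRNA factor gene eif2a stood at 87.5, 81.4 and 72.4 CPM in mutant and 97.9, 63.5 and 84.2 CPM in wild-type libraries. In eif4bb, eif4a3 and eif2a wild-type 1 stood higher and wild-type 2 lower than every mutant library, except that wild-type 3 was highest for eif4bb.

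The late initiation factors were steady, with eIF5 and eIF5B together at 559, 584 and 581 CPM in mutant and 567, 594 and 641 CPM in wild-type libraries. The hypusine-carrying factor eIF5A acts in elongation and termination. Its gene eif5a stood at 1490, 1593 and 1349 CPM in mutant and 1534, 1374 and 1417 CPM in wild-type libraries, and eif5a2 at 858, 806 and 966 CPM in mutant and 863, 755 and 1013 CPM in wild-type libraries. The anti-association factor gene eif6 stood at 125, 121 and 103 CPM in mutant and 134, 115 and 113 CPM in wild-type libraries.

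Of the elongation factors, eef1a1l1, the main eEF1A gene of these libraries, stood at 16896, 16711 and 15193 CPM in mutant and 18092, 14739 and 15465 CPM in wild-type libraries. The translocation factor gene eef2b stood at 9234, 8987 and 8577 CPM in mutant and 9453, 8348 and 8974 CPM in wild-type libraries. The 4 genes of the exchange complex eEF1B summed to 5133, 5078 and 4172 CPM in mutant and 5299, 4530 and 4359 CPM in wild-type libraries. In eEF1B, with TMM factors, both libraries numbered 3 were lower than the other libraries of their genotype. With library totals mutant 3 was still the lowest mutant library, at 4641 CPM. Wild-type 3 then stood at 4608 CPM, above wild-type 2 at 4434 CPM. The gene eef1e1, whose product in mammals joins the complex of tRNA synthetases, stood at 27.5, 18.9 and 14.4 CPM in mutant and 19.9, 19.2 and 18.0 CPM in wild-type libraries, with mutant 1 highest and mutant 3 lowest. The kinase gene eef2k, whose product halts eEF2, stood at 33.1, 33.3 and 37.7 CPM in mutant and 37.7, 39.8 and 30.1 CPM in wild-type libraries.

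Low copies varied most. For eef1a1b there were 70, 37 and 339 reads in mutant and 195, 8 and 43 reads in wild-type libraries, so 1 library in each genotype held most of its reads. For eef1a1a the levels were 3.76, 6.60 and 9.43 CPM in mutant and 5.70, 4.72 and 4.72 CPM in wild-type libraries. Reads of near-identical copies can be lost or split in counting, and 13.6% to 15% of entries in mutant and 14.1% to 20.3% in wild-type libraries were alignments at more than 1 place, so the levels of low eef1a copies are uncertain. The genes eef2a.2 and eef2l2 were both highest in wild-type 2. The levels of eef2a.2 were 6.95, 4.68 and 5.03 CPM in mutant and 3.84, 13.6 and 6.39 CPM in wild-type libraries, and eef2l2 had 16.3, 16.9 and 15.2 CPM in mutant and 15.6, 28.7 and 16.7 CPM in wild-type libraries. The summed level of the 13 skeletal muscle markers, all with reads, was also highest in wild-type 2, at 3705, 4970 and 2433 CPM in mutant and 4723, 7355 and 2590 CPM in wild-type libraries. Muscle markers were next highest in mutant 2 and wild-type 1, where eef2a.2 was lowest, though eef2l2 was also next highest in mutant 2. Summed neural markers were highest in wild-type 2 too, at 432 CPM. The part of either cell type in these values was not tested.

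Where a factor has several copies, the split of reads among them was steadier between libraries in some families than in others. Reads are not corrected for length here, so a share describes reads and is compared between libraries only. Of eEF1A reads, eef1a1l1 took 99.90% to 99.97% in mutant and 99.94% to 99.97% in wild-type libraries. Of eEF2 reads, eef2b took 98.2%, 98.3% and 98.5% in mutant and 98.7%, 98.1% and 98.8% in wild-type libraries. Of the eIF2 alpha subunit, the target of the stress kinases, eif2s1b took 76.2%, 77.5% and 75.8% in mutant and 78.9%, 75.9% and 76.7% in wild-type libraries. Wider swings were seen in eIF3j, where eif3ja took 45.0%, 51.9% and 51.9% in mutant and 51.0%, 45.3% and 45.3% in wild-type libraries, and in eIF5A, where eif5a took 63.4%, 66.4% and 58.3% in mutant and 64.0%, 64.5% and 58.3% in wild-type libraries. The share of eif5a was lowest in the libraries numbered 3 of both genotypes. Of 4E-BP reads, eif4ebp2 took 51.8%, 51.7% and 53.9% in mutant and 45.7%, 51.5% and 52.6% in wild-type libraries. Of eIF4G2 reads, eif4g2b took 63.5% to 68.5% in mutant and 65.6% to 70.6% in wild-type libraries. In each of these families the mutant and wild-type ranges overlapped. In eEF1D, the exchange factor's delta subunit, eef1da took 57.7%, 60.4% and 60.2% in mutant and 60.9%, 60.4% and 64.2% in wild-type libraries. There the highest mutant share, 60.386%, lay just under the lowest wild-type share, 60.389%, so the ranges met without overlapping. This family was picked out by these values from all the families, also those not printed here, and in no other did the ranges separate. No background share was computed for this, and no test was run.

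**Figure D2:**
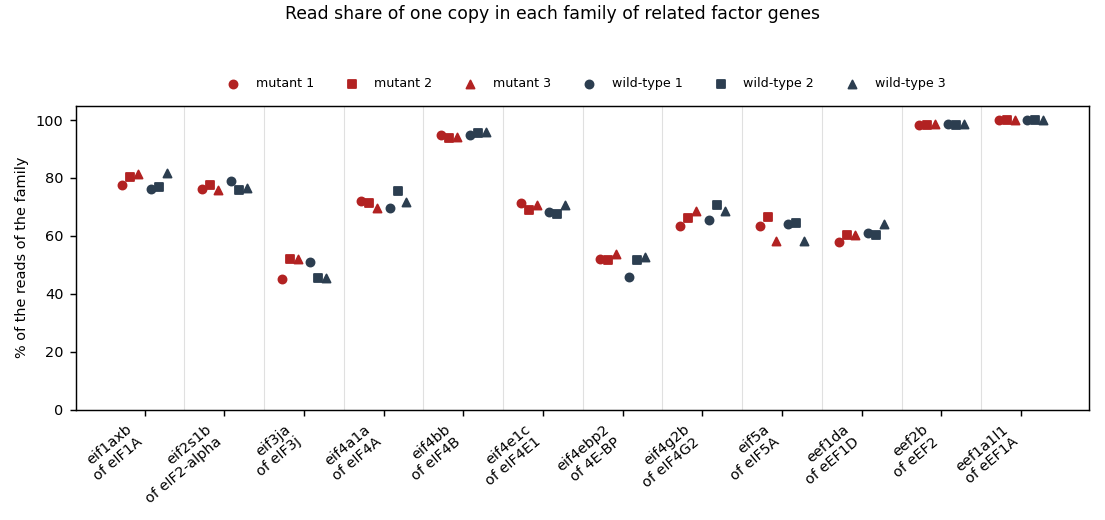
Share of the reads of a family (vertical axis, %) taken by 1 named copy in the 3 mutant (red) and 3 wild-type (dark) libraries, 1 point per library. The points lie closer together in some families than in others, and the share of eif5a is lowest, at 58.3%, in mutant 3 and wild-type 3.

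Between libraries the factor genes were steadier than genes at large. The median spread within genotype was 0.188 log2 units over the 73 tested factor genes and 0.447 over all 19381 tested genes. The gap was smaller among genes of higher level. Among genes with a mean log2 CPM over 5 the median was 0.154 for 54 factor genes and 0.212 for all 4185 such genes. In 49 of 73 factor genes (67.1%) the highest of the 6 libraries was within 1.5 times the lowest, which held for 18.3% of all tested genes. At a mean log2 CPM over 5 it held for 83.3% of factor genes and 55.8% of all genes. Above that cut the sets were not matched in level, and the part of level in the remaining gap was not tested. Among groups with 2 or more tested members the median spread was lowest for eIF5 with eIF5B (0.107), eIF4A (0.124) and eIF2 (0.126), and highest for eEF1A (0.482), the eIF2 kinases (0.314) and eIF2B (0.305). The eEF1A value was that of the low copy eef1a1a, while eef1a1l1, which took nearly all eEF1A reads, had a spread of 0.125. Without wild-type 2 the spread of eIF2B was 0.196, and without mutant 1 that of eEF1A was 0.245.

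Summed over the 74 genes, the factor level was 48618, 47755 and 44056 CPM in mutant 1, 2 and 3 and 50459, 43699 and 45603 CPM in wild-type 1, 2 and 3. The highest library, wild-type 1, had 1.15 times the level of the lowest, wild-type 2. Over tested factor genes the sum was lowest in mutant 3 with RLE factors, at 43827 CPM, against 44184 CPM in wild-type 2. It was also lowest there with upper-quartile factors, at 44179 CPM, against 44338 CPM in wild-type 2. Wild-type 2 was the lowest of the 6 libraries in 39.7% of the tested factor genes, against 19.7% of all tested genes, and wild-type 1 the highest in 32.9%, against 15.7%. Under the 3 other scalings wild-type 2 was lowest in 37.0% to 45.2% of factor genes. The place of mutant 3 depended on the scaling: it was lowest in 28.8% of factor genes with TMM factors and in 11% with library totals, where it was instead highest in 34.2%. Over all tested genes mutant 3 was lowest in 12.3% with TMM factors and in 6.68% with library totals, where it was highest in 26.1%. With TMM factors the summed endothelial markers ran in a similar order, with wild-type 1 highest at 838 CPM and wild-type 2 and mutant 3 lowest at 563 and 546 CPM. Their part in the factor level was not tested. With library totals the tested factor genes instead summed highest in mutant 3, at 49006 CPM, against 48836 CPM in wild-type 1.

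**Figure D3:**
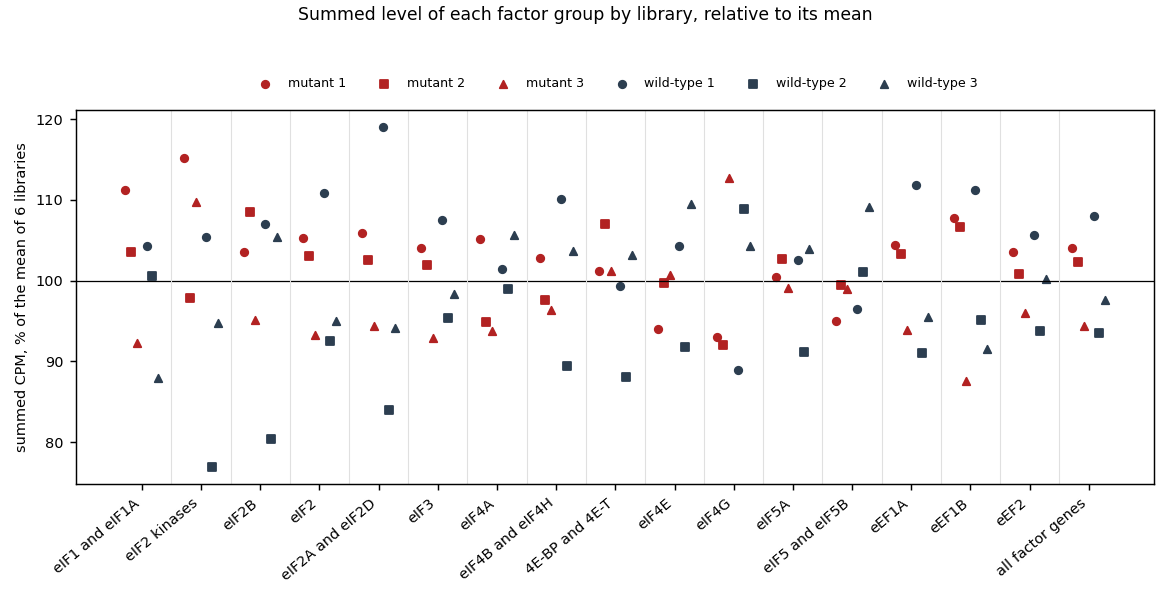
Summed CPM of each factor group with 2 or more members, as % of its mean over the 6 libraries (vertical axis), for the 3 mutant (red) and 3 wild-type (dark) libraries, 1 point per library, with TMM scaling. Wild-type 2 lies at 77.0% for the eIF2 kinases and 80.4% for eIF2B, and mutant and wild-type points interleave. The eIF4G sum, most of it from the eif4g2 genes, runs in a different order from eIF2 and eIF3.

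Ratios between genes of 1 library do not depend on the scaling, and some of them set the libraries numbered 3 apart. There were 3.90, 3.90 and 6.56 reads of eif3s10 per read of eif3k, a small subunit gene, in mutant 1, 2 and 3 and 4.75, 4.34 and 5.50 in wild-type 1, 2 and 3. The ratio of eef2b to eef1b2, a subunit of the exchange complex, was 6.0, 5.81 and 7.59 in mutant and 6.12, 5.63 and 7.12 in wild-type libraries. Both ratios were highest in mutant 3 and next in wild-type 3. Other ratios did not run so. That of eef1a1l1 to eef2b was 1.83, 1.86 and 1.77 in mutant and 1.91, 1.77 and 1.72 in wild-type libraries. The ratio of eif4g2b to eif4g2a was highest in wild-type 2, at 2.40. Among the 12 eIF3 genes with a mean above 100 CPM, set against the median subunit of the same library, eif3s10 and eif3c stood highest in mutant 3, while eif3f, eif3ha, eif3i, eif3k and eif3m stood lowest there. The shift in mutant 3 ran from 0.21 log2 units above that median for eif3s10 to -0.26 for eif3k. Of the 12 genes, 10 lay on the same side of that median in mutant 3 and wild-type 3. These genes were singled out after their values were seen, and no test was run. Genes with symbols starting rpl or rps, which are mostly ribosomal protein genes, took 18.5%, 18.0% and 13.0% of reads in mutant and 17.8%, 16.4% and 15.3% in wild-type libraries, again least in the libraries numbered 3, and the part of this in the ratios was not tested. Of the eIF2 subunit gene pairs examined, that of eif2s1b to eif2s2, the beta subunit gene, varied least. Its ratio was 0.764, 0.728 and 0.746 in mutant and 0.778, 0.756 and 0.792 in wild-type libraries. The ratio of eif2s3 to eif2s2 was 1.41, 1.37 and 1.62 in mutant and 1.52, 1.51 and 1.58 in wild-type libraries. It too was highest in mutant 3 and next in wild-type 3. The ratio of eif2s3 to eif2s1b was also highest in mutant 3, at 2.17, with wild-type 2 next at 2.00.

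**Figure D4:**
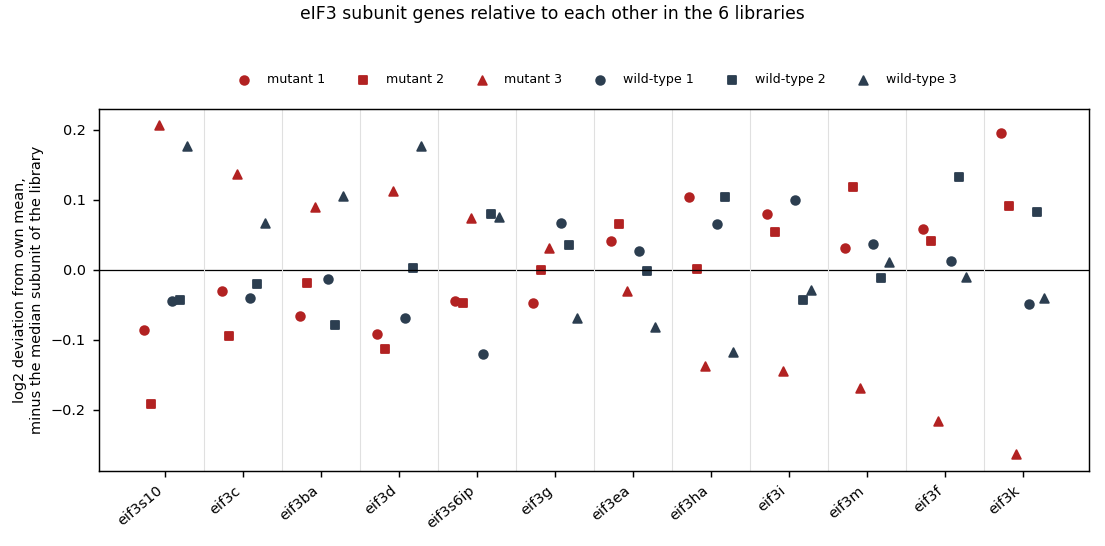
Deviation of 12 eIF3 subunit genes from their own mean over the 6 libraries, minus that of the median subunit of the same library (vertical axis, log2 units), for the 3 mutant (red) and 3 wild-type (dark) libraries, 1 point per library. Triangles, the libraries numbered 3 of both genotypes, lie above 0 for the genes at the left, such as eif3s10, and mutant 3 lies lowest for eif3k at -0.26.

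The series sets mutant against wild-type fish, and no factor gene passed the test of that difference. After Benjamini-Hochberg adjustment over all genes, edgeR's quasi-likelihood test called 0 of the 73 tested factor genes, where 0% of all 19381 tested genes were called. At an unadjusted p under 0.05 there were also 0 factor genes, against a background of 1.57% of all genes (0.903% higher and 0.671% lower in mutant libraries). DESeq2 called 0 factor genes, with 0 at an unadjusted p under 0.05, and limma-voom called 0, with 1 at that level. The fitted difference was above 0 in 38 factor genes and below 0 in 35 (52.1% above 0, background 49.3%), and the median over factor genes was 0.00360 log2 units, against -0.00470 over all tested genes. The factor median was -0.00307 with RLE factors, which are another scaling. All 13 skeletal muscle markers were fitted lower in mutant libraries (median -0.37), and 0 passed; their part in the factor differences was not tested. The adjusted p of each factor gene was 1.00.

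The intervals limit how large a difference could be. The 95% confidence interval of the ratio of mutant to wild-type lay within 1.5-fold in either direction for 53 of the 73 genes. For eef1a1l1 the means were 16266 ± 934 CPM in mutant and 16099 ± 1764 CPM in wild-type libraries (SD, n = 3 each), and the interval ran from 0.785 to 1.30 times the wild-type level. For eef2b the means were 8933 ± 332 CPM in mutant and 8925 ± 554 CPM in wild-type libraries, with an interval from 0.791 to 1.27 times. Among the 54 factor genes with a mean log2 CPM over 5 the intervals reached no lower than 0.612 and no higher than 1.63 times the wild-type level.

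**Figure D5:**
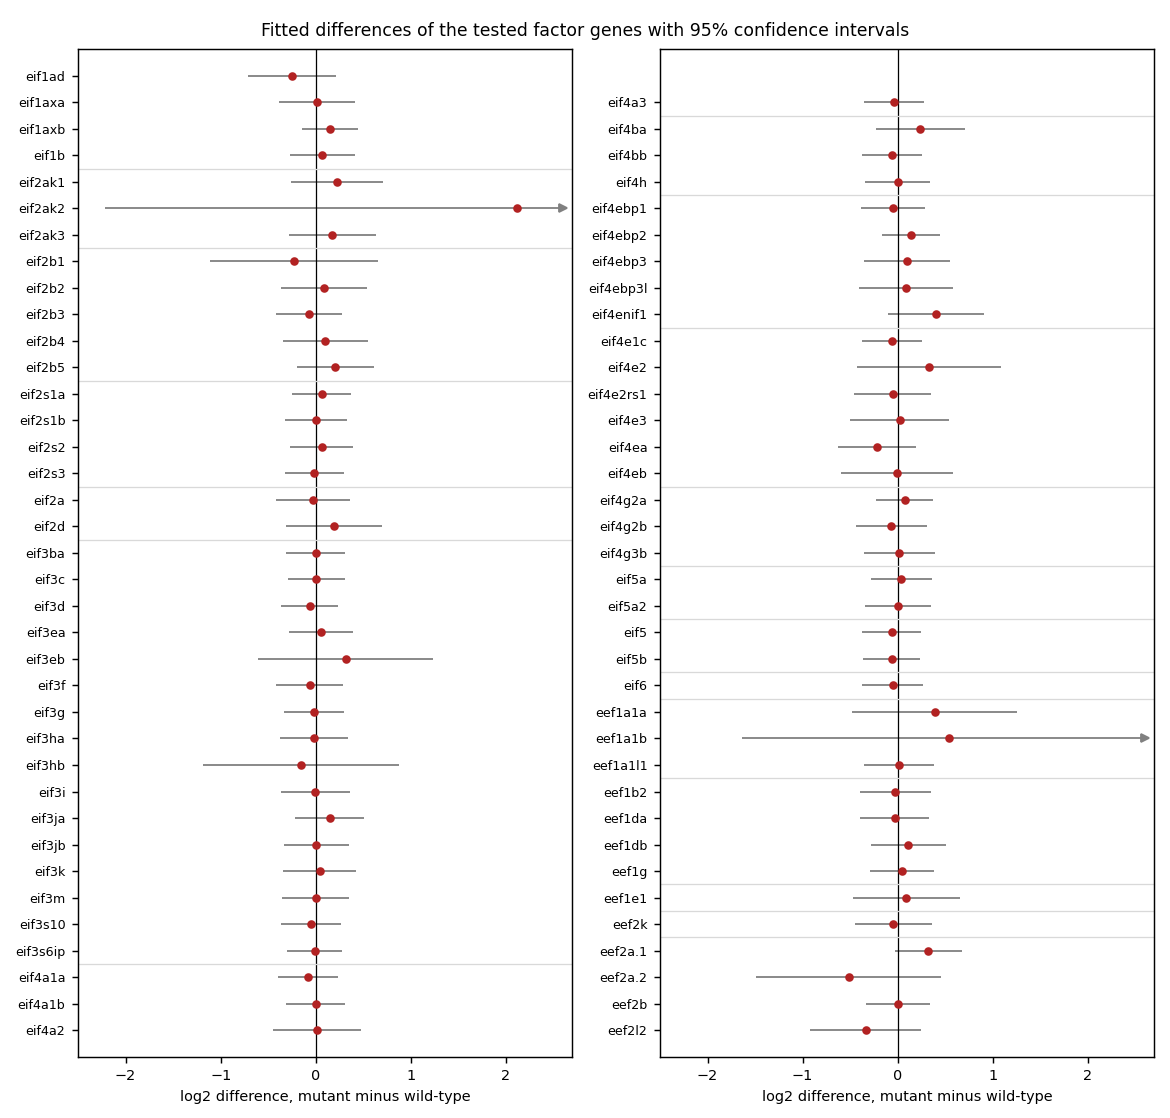
Fitted log2 difference, mutant minus wild-type (horizontal axis), of the 73 tested factor genes, with 95% confidence intervals as grey lines (n = 3 libraries per genotype); grey lines across separate the factor groups and arrowheads mark intervals that run beyond the axis. Each interval includes 0, and the widest are those of eif2ak2 and eef1a1b.

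By group, none of the 16 groups with 2 or more tested members held a called gene. In eIF3 the fitted difference was above 0 for 6 of 16 tested members and below 0 for 10 (median -0.00 log2 units). It was above and below 0, in eIF2, for 3 and 1 (median 0.03), in eIF2B for 3 and 2 (median 0.08), in eIF4E for 2 and 4 (median -0.03), and in the group of 4E-BP with 4E-T for 4 and 1 (median 0.10). The 3 eIF2 kinases were all fitted higher (median 0.22), as were the 3 eEF1A genes (median 0.39), and in both groups the genes with few reads had wide intervals. The median of eEF1A was the value of the low copy eef1a1a, while eef1a1l1, which took nearly all eEF1A reads, was fitted at 0.015. That median was 0.0068 without wild-type 2 and 0.04 without mutant 3. The 4 eEF1B genes were split evenly (median 0.0091), and of the 4 eEF2 genes 2 were higher and 2 lower (median -0.17, or 0.06 without wild-type 2). With each library left out in turn, the median kept its sign in 4 of the 16 groups, namely the eIF2 kinases, 4E-BP with 4E-T, eIF5 with eIF5B, and eEF1A, and did not in the other 12.

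The smallest p of the set was that of eef2a.1, a second eEF2 copy, at 141, 137 and 111 CPM in mutant and 107, 116 and 87.8 CPM in wild-type libraries. Mutant 1 and mutant 2 lay above every wild-type library and mutant 3 did not. Its log2 difference was 0.32 ± 0.16 (SE, edgeR unadjusted p = 0.0692, adjusted p = 1.00). The eIF4E transporter gene eif4enif1 came next, with a log2 difference of 0.40 ± 0.23. The PKR gene eif2ak2 had the largest fitted difference, 2.12 ± 1.99, on 196 reads in all, and its interval ran from 0.214 to 87.6 times the wild-type level; without wild-type 1 the fitted difference was 8.70, with 0 reads in both remaining wild-type libraries. For eef1a1b the difference was 0.54 ± 1.00 and turned to -0.66 without mutant 3. For eef2a.2 it was -0.52 ± 0.45 and turned to 0.12 without wild-type 2. For eef1a1a it was 0.39 ± 0.40, and 0.04 without mutant 3. For eif3eb it was 0.31 ± 0.42 and turned to -0.068 without wild-type 2.

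The members with the smallest p in the other groups differed less. In the scanning group eif1ad, which encodes a protein with an eIF1A-like domain, differed by -0.25 ± 0.21 log2 units (SE). In eIF2B the gene of the catalytic subunit, eif2b5, differed by 0.21 ± 0.18, and in eIF2 the alpha subunit gene eif2s1a by 0.06 ± 0.14. In eIF3 the loosely bound subunit gene eif3ja differed by 0.15 ± 0.17. The initiator tRNA factor gene eif2d differed by 0.19 ± 0.23, the helicase cofactor gene eif4ba by 0.24 ± 0.21 and the cap-binding gene eif4ea by -0.22 ± 0.19. The genes eif4a1a, eif4g2a, eif5 and eif5a differed by -0.08 ± 0.14, 0.08 ± 0.14, -0.06 ± 0.14 and 0.04 ± 0.15, and eef1db by 0.11 ± 0.18. The single gene whose CPM ranges did not overlap was eif1axb, chosen after its values were seen, higher in mutant libraries by 0.15 ± 0.13 (unadjusted p = 0.289 in edgeR). That is 1 of 73 factor genes, where 3.38% of all tested genes lay higher without overlap and 3.36% lower.

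Other genes of the translation pathway were not called either. Of 21 tested genes of mTOR and MNK signalling, which acts on eIF4F, 12 were fitted higher and 9 lower (median 0.01), and 0 passed. A copy of the gene of the mTOR inhibitor Tsc1, tsc1a, stood at 8.31 ± 0.842 CPM in mutant and 4.79 ± 1.63 CPM in wild-type libraries (SD, n = 3). Its fitted difference in log2 units was 0.80 ± 0.36 (SE), and rps6kb1b, an S6 kinase gene, differed by 0.21 ± 0.15. The other copies, tsc1b and rps6kb1a, were both fitted lower in mutant libraries. The levels of tsc1b were 14.4 ± 4.11 CPM in mutant and 16.4 ± 2.71 CPM in wild-type libraries. Of 12 tested genes of the integrated stress response, which follows eIF2 phosphorylation, 9 were higher and 3 lower (median 0.09). In that list the transcription factor gene atf5b differed by 0.78 ± 0.30 and the asparagine synthetase gene asns by 0.19 ± 0.16. The other copy, atf5a, was fitted lower, at 30.8 ± 11.0 CPM in mutant and 35.4 ± 11.4 CPM in wild-type libraries.

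Of 9 genes for hypusine and diphthamide, the modifications of eIF5A and eEF2, 2 were fitted higher and 7 lower (median -0.14). The gene of the hydroxylase that completes hypusine, dohh, stood at 30.3 ± 4.39 CPM in mutant and 42.3 ± 2.77 CPM in wild-type libraries (SD, n = 3), with a fitted difference in log2 units of -0.48 ± 0.18 (SE), and dph6 differed by -0.33 ± 0.29. The genes tsc1a, atf5b and dohh had unadjusted p-values of 0.0482, 0.0249 and 0.0223 in edgeR, each with an adjusted p of 1.00. They are 3 of the 90 tested genes of the 8 lists, against the background of 1.57%.

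Of 7 tested termination and recycling genes 4 were fitted higher and 3 lower, with the ribosome rescue gene hbs1l at 0.15 ± 0.16 and the release factor gene gspt1l at -0.08 ± 0.14. Of 5 tested genes of poly(A)-binding proteins and their partners 3 were higher and 2 lower, with paip1 at 0.27 ± 0.22 and pabpc4 at -0.19 ± 0.19. Of 22 tested cytosolic tRNA synthetase genes 7 were higher and 15 lower (median -0.04), with cars at -0.25 ± 0.17 and farsb at 0.15 ± 0.14. Of 10 mitochondrial translation factor genes 4 were higher and 6 lower, with tsfm at -0.41 ± 0.28 and mtif3 at 0.60 ± 0.45. Of 4 tested selenocysteine genes 1 was higher and 3 lower, with sephs1 at -0.23 ± 0.19 and secisbp2 at 0.27 ± 0.33.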

How the data were processed

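The deposited values are raw counts, whole numbers of reads for each gene symbol, in 1 file per library and in a series table with the same counts. Per the submitters' processing notes, the authors used bcl2fastq, STAR and HTSeq, with the builds Zv9 and danRer7. Versions, annotation and strand setting were not given in the sources used here, and overlapping genes cannot be told apart. Summary rows, 22.1% to 28.1% of entries, were left out. No column was unused.

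The analysis used R 4.3.3 and edgeR 4.0.16 (filterByExpr, TMM factors, robust quasi-likelihood fit, Benjamini-Hochberg adjustment, threshold 0.05), limma 3.58.1 and DESeq2 1.42.0; matplotlib 3.10.9 under Python 3.11.15 drew the figures. Spread is the SD of log2 CPM (prior count 2) pooled over genotypes. The labels do not say whether the 3 libraries per genotype are separate embryo pools; p-values therefore reflect a spread that may be technical. Fitted differences are printed for the member with the smallest p in each group, the 5 largest differences, the 3 largest spreads, and the 2 smallest p of each list of other translation genes; members and lists were chosen with earlier results of these data known. Symbols were matched to RefSeq names of GRCz12tu; coordinates were not used. Levels per coding length, planned at the start, were not computed because no lengths were used here.

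The fits were tested on simulated data with known changes. Alternatives were other scalings, filters, tools and thresholds, a minimum fold, a replicate block and leaving out each library.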

Additional observations from a re-analysis of the deposited data

How the results depend on the processing

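The number of factor genes called was 0 under each scaling, filter, tool, threshold and minimum fold tried, with the replicate block, with symbols matched in either case and without each library, and so was the number over all genes, where the main test had 305 genes, DESeq2 358, limma-voom 465 and the replicate block 523 at an unadjusted p under 0.05. With the replicate block the adjusted p reached 0.0535 over all genes, its lowest value in any setting, and 0.9995 in limma-voom was the lowest over factor genes. The median log2 difference over factor genes tested was 0.00360 with TMM factors, -0.00307 with RLE factors, -0.0074 with upper-quartile factors and 0.0059 with the replicate block, and ranged from -0.03 to 0.09 with each library left out. The fitted differences of 36 genes were compared between settings. The upper-case entries EIF4G1_(1_of_3) and EIF2B5_(2_of_2), also given with a difference, were not among them. Of 574 alternative values for the 36 genes, 567 had the same sign as in the report, 7 in 7 genes did not, and 0 passed. Those 7 arose with 1 library left out: eef1a1b ranged from -0.66 to 2.42, eef2a.2 from -0.85 to 0.12, eif3eb from -0.068 to 0.69, eif2d from -0.017 to 0.36, eif2s1a from -0.0098 to 0.12, eif5a from -0.021 to 0.096 and eef1db from -0.0045 to 0.26. The difference of eif2ak2 ranged from 1.53 to 8.70 and was highest without wild-type 1, where each remaining wild-type library had 0 reads. With a library left out, the fitted ratio moved by over 1.5-fold in 3 of the 36 genes, eef1a1b, eef2a.2 and eif2ak2. Smaller moves still took differences close to 0: eef1a1a was 0.04 without mutant 3, tsfm -0.20 without mutant 1, dph6 -0.076 and pabpc4 -0.012 without wild-type 1, and mtif3 0.24 and asns 0.061 without wild-type 2. The cause was not tested for the other changes. The spread of eEF1B was 0.121 with library totals and 0.142 without mutant 3, against 0.216 with TMM factors and all libraries. Levels with and without a correction for coding length, planned at the start, were not compared, because no lengths were used. The median spread of factor genes ranged from 0.154 to 0.202 with each library left out, an alternative chosen after the data were seen, as was matching symbols in either case. Deviations of libraries numbered 1, 2 and 3 correlated between genotypes at 0.0598, 0.0211 and 0.140 over all tested genes, at -0.431, 0.532 and -0.0434 over factor genes, but at 0.346, 0.113 and 0.537 over the 4185 genes whose mean log2 CPM exceeded 5. These correlations differ with the genes used. They were computed only between libraries of the same number, so they cannot show whether the numbers pair the libraries. The labels do not say that they do. The edgeR fit with the replicate block called 0 factor genes, with 1 at an unadjusted p under 0.05. The widest intervals were those of eif2ak2, with 196 reads in all, and eef1a1b, whose reads lay mostly in 1 library of each genotype.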
